A study of Homo sapiens with 6 samples.

Results

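The genes described here encode the DNA polymerases that copy the genome, the sliding clamp and its loaders, and the proteins that start, stabilise and finish a replication fork. The members are 40 genes chosen by symbol, and all 40 were measured among the 19775 genes on the arrays, with no filter on low values. Each gene is represented by its brightest probe set, the one with the highest mean intensity over all arrays, among those whose platform annotation gives a single gene symbol. RNA from KOPTK1 cells, an established line of human T-cell leukaemia of the acute lymphoblastic kind (T-ALL), was hybridised to 6 Affymetrix arrays. In 3 cultures the cells had received vehicle, and in the other 3 they had received 1 µM PD0332991 (palbociclib), an inhibitor of the kinases CDK4 and CDK6, each for 48 h. The submitters call the replicates biological triplicates, and everything rests on this single line. The question was how the RNAs of the fork machinery, and within each complex those of catalytic and accessory subunits, differed after the inhibitor.

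A replication fork is opened by the MCM helicase with CDC45 and the GINS complex. DNA polymerase alpha and its primase lay down a short RNA-DNA primer, replication factor C (RFC) then loads the ring-shaped clamp PCNA, and DNA polymerases epsilon and delta extend the leading and lagging strands. Flap nucleases and DNA ligase I join the lagging-strand pieces. CDK4 and CDK6 phosphorylate the retinoblastoma protein RB, which otherwise holds back the E2F transcription factors, and many genes of DNA synthesis are known E2F targets.

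Of the 40 genes, 38 were lower with PD0332991 (limma, adjusted p under 0.05), 1 was higher and 1 did not pass the test. That is 95% of members lower, against 13.6% of all genes tested, and 2.50% higher, against 15.6%. At least 2-fold decreases were called in 31 members, against 2.55% of all genes, and at least 4-fold decreases in 7, against 0.753%. In all 38 lower genes the 3 PD0332991 arrays lay below the 3 vehicle arrays, an order seen in 20.0% of all genes. The median log2 fold change of the members was −1.46, or 2.75-fold lower, while the median of all genes was 0.01. The largest decreases were in DSCC1, PRIM1, GINS2, RECQL4, GINS1, CLSPN and POLE2, all at least 4-fold. POLE3, POLE4 and POLD4, which encode small accessory subunits of the polymerases epsilon and delta, were at the other end of the order. In RNA from whole cultures, fewer cells that express a gene and less of its RNA per cell cannot be told apart.

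**Figure D1:**
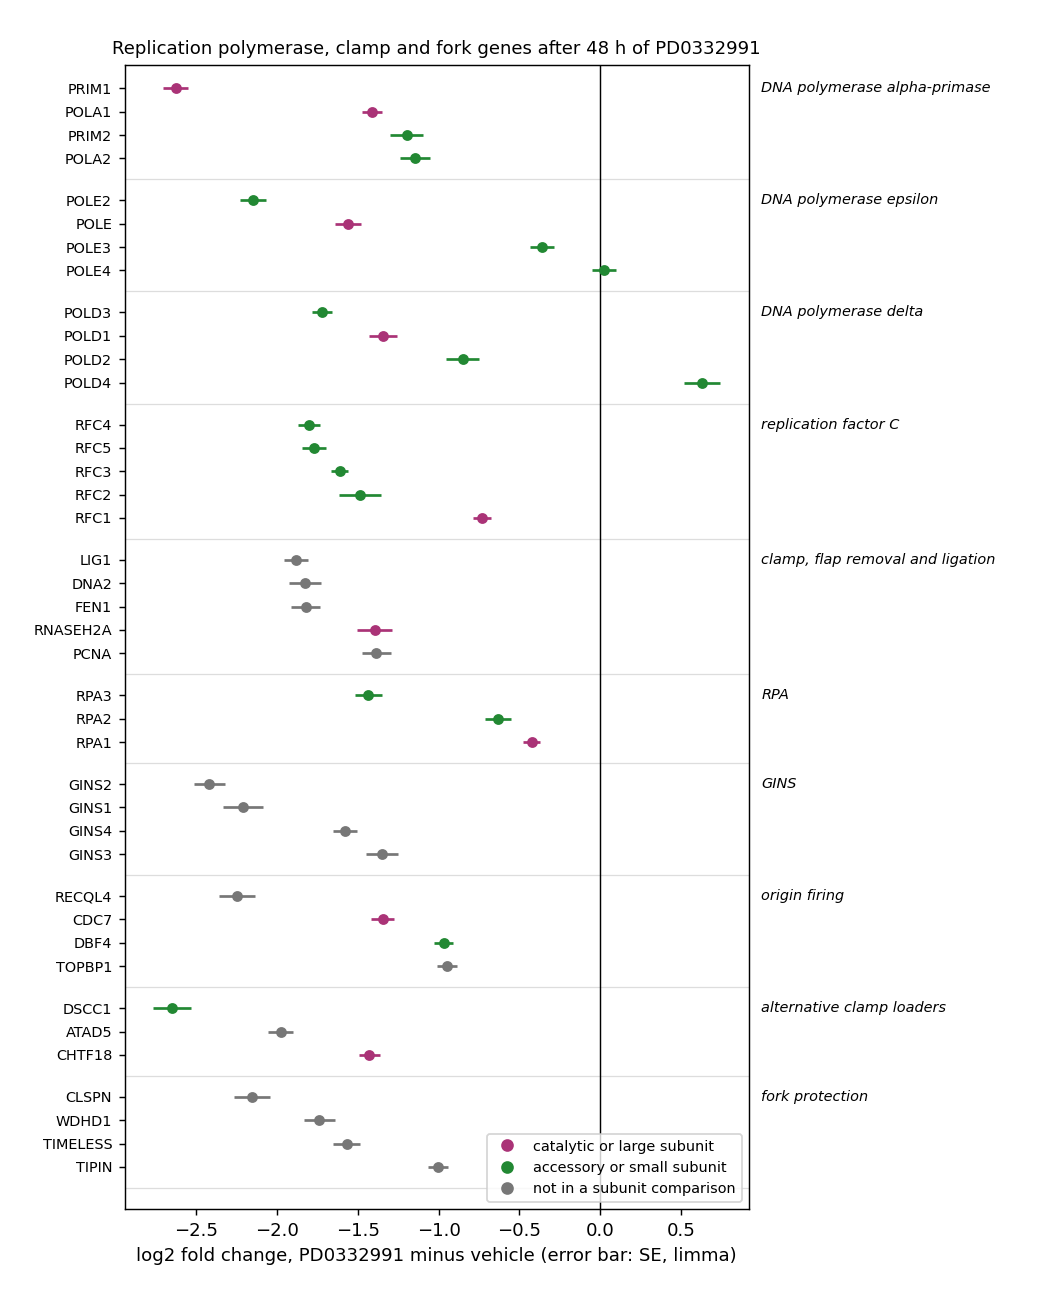
Log2 fold change of each of the 40 genes, PD0332991 minus vehicle, with its standard error from limma (3 arrays per group), grouped by complex and coloured by subunit role. All points lie left of 0 except POLE4 at 0.03 and POLD4 at 0.63.

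**Figure D2:**
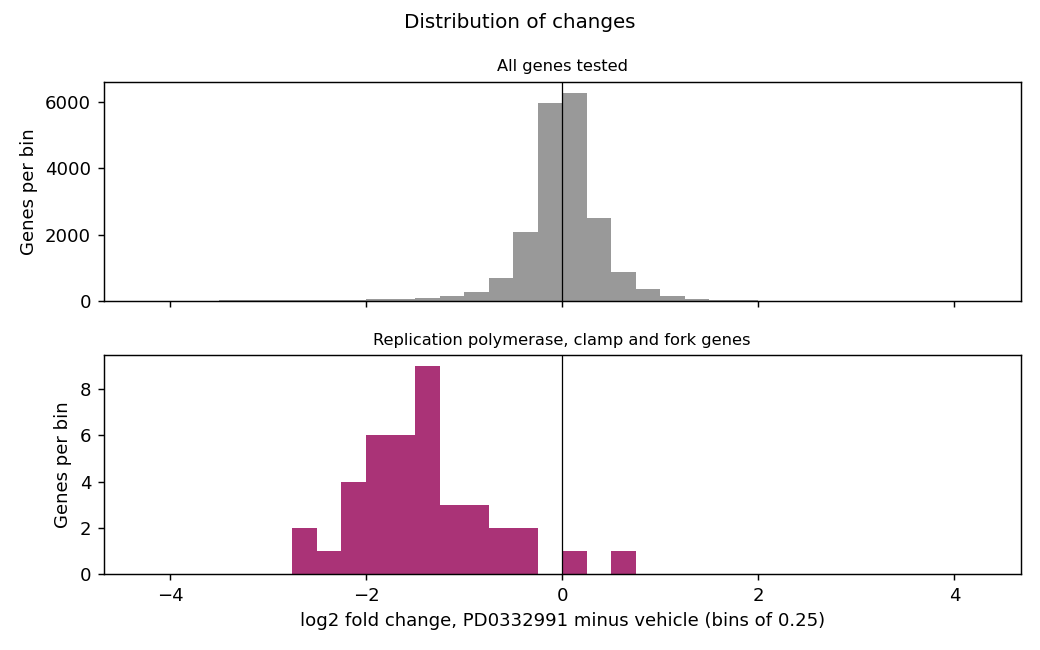
Number of genes per bin of 0.25 in log2 fold change, for all 19775 genes tested (top) and for the 40 members (bottom), each on its own count axis. The members centre on −1.46 and all genes on 0.01.

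The arrays themselves were alike. Median intensity ran from 49.1 to 54.3, the ratio of 3′ to 5′ control probe sets from 0.935 to 0.973 for GAPDH and from 2.31 to 2.61 for ACTB, and Pearson's r between arrays within a group was 0.993 to 0.996 across genes, which are not independent replicates. All 11 T-lineage markers examined were measured with means above 64, and their summed intensity was 25030 to 27124 with vehicle and 31969 to 33204 with PD0332991. The sums were at most 261 for the 5 myeloid, 242 for the 4 fibroblast and 234 for the 2 erythroid markers measured. The 4 B-lineage markers measured summed to 366 to 431 with vehicle and 594 to 760 with PD0332991, and 3 of them had means below 64. The part of these shifts in the results was not tested. PD0332991 replicate 1 had the lowest intensity of its group for 31 of the 40 members, and for 46.7% of all genes called lower. Without it the members' median was −1.42 and the counts of 38 lower and 1 higher were the same.

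To show the DNA in front of the genes at both ends of the order, the 250 bases before the annotated transcription start are printed for the 3 largest decreases and the 3 highest log2 fold changes that RefSeq's promoter table (GRCh38.p14) holds. Sequences run 5′ to 3′ on the gene's strand, and capitals mark either an E2F motif or a CCAAT box, on either strand. The largest decreases come in front, PRIM1, GINS2 and GINS1, followed by POLD4, POLE4 and POLE3.
PRIM1, chr12:56752324-56752573, minus strand: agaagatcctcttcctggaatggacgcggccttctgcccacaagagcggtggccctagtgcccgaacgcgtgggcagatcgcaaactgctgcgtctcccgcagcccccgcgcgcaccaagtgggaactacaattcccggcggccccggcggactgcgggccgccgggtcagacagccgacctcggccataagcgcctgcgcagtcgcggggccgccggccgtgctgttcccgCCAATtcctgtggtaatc
GINS2, chr16:85688955-85689204, minus strand: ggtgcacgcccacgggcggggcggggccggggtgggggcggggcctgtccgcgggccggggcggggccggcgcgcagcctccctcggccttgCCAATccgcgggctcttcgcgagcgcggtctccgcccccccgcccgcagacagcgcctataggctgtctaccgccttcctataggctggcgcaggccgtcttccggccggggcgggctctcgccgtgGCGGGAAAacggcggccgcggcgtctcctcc
GINS1, chr20:25407423-25407672, plus strand: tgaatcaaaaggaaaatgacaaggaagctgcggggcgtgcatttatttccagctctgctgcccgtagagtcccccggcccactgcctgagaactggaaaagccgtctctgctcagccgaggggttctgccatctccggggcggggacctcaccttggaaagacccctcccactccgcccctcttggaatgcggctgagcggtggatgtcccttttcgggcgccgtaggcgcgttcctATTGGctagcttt
POLD4, chr11:67353597-67353846, minus strand: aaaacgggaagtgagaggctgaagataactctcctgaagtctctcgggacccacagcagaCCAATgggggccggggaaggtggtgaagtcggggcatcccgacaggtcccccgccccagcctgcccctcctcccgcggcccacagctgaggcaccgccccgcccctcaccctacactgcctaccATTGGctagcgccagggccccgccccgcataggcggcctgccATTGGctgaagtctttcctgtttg
POLE4, chr2:74958393-74958642, plus strand: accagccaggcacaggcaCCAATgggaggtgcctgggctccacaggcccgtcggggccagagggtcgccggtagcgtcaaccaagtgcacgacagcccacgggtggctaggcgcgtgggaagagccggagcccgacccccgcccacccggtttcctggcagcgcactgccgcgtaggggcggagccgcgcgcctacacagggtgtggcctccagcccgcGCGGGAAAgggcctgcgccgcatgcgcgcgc
POLE3, chr9:113410750-113410999, minus strand: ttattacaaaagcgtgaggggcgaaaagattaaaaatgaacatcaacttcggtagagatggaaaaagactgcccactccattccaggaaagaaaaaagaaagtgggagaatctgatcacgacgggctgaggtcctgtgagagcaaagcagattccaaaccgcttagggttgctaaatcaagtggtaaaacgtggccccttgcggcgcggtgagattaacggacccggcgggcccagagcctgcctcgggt

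The E2F motif searched was any of TTTCCCGC, TTTGGCGC, TTTCGCGC or TTTGCCGC, on both strands, with overlapping matches allowed, in windows from 250 bases before to 50 after the start. The promoter table held windows for 32 of the 40 members, and ATAD5, DNA2, DSCC1, GINS4, POLD3, RECQL4, RPA2 and RPA3 were not matched. An E2F motif was present in 15 of the 32 members, or 46.9%, against 5.36% of the 15384 tested genes with a window and 3.32% of all 35116 windows. Of other genes called at least 2-fold lower, 17.6% of 386 held it, and of other genes not called 4.50%. The windows of members had a median GC content of 66.4%, against 62.7% for other tested genes, and base composition bears on how often such letters occur. In 13 of the 15 members a match began within 100 bases of the start, as in GINS2, POLE2, POLE, PCNA and CLSPN. This share was not computed for other genes that hold the motif, so it cannot be read as a trait of the members. These shares are descriptions without a test, and a match is not a measured binding site. Only these exact letters were searched, so a window without a match may still hold a site.

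The median log2 fold change was −1.41 in the 15 with an E2F motif and −1.40 in the 17 without. With the 32 ordered from the largest decrease upward, the motif was held by 5, 3, 5 and 2 members in successive groups of 8. PRIM1, with the largest decrease of the printed set, held no exact match in its window. Its printed stretch does hold GTTCCCGC, which differs from TTTCCCGC in the first letter only. POLE4, which did not pass, held GCGGGAAA, the reverse complement of TTTCCCGC, 31 bases before its start. GINS2 held the same letters at the same distance. In GINS1 the match, GCGCCAAA, began 5 bases after the start and so lies outside the printed stretch. The CCAAT box, bound by the factor NF-Y, was found as CCAAT or its reverse complement ATTGG in 17 of the 32 members, or 53.1%, against 41.7% of tested genes. The CHR element TTTGAA, known from genes of mitosis, was found in 2, POLE3 and DBF4, or 6.25%, against 15.6% of tested genes.

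**Figure D3:**
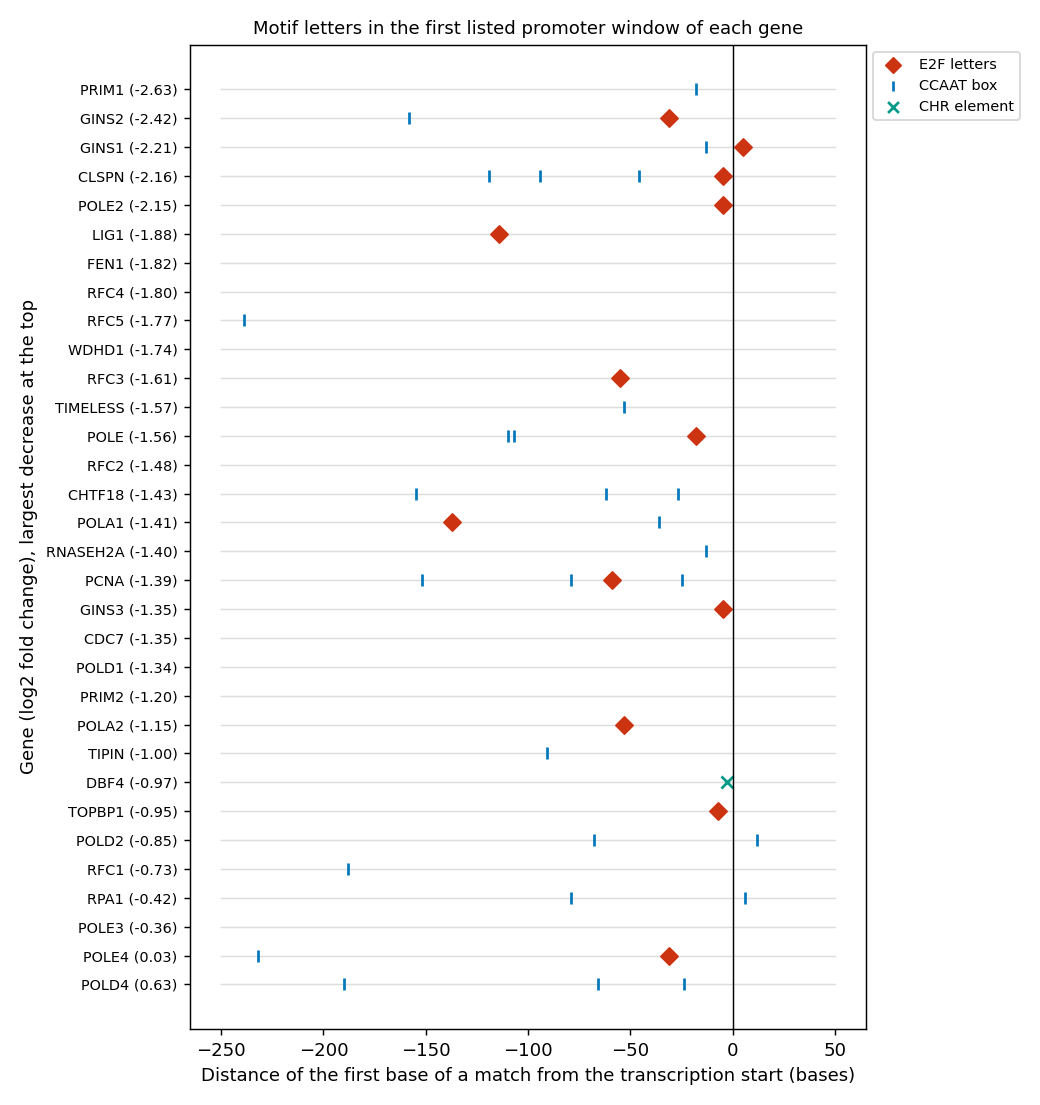
Position of each E2F, CCAAT and CHR match (first base, in bases from the transcription start) in the window listed first for each of the 32 members, ordered by log2 fold change. The E2F matches of CDC7 and TIPIN and the CHR match of POLE3 lie in further windows of these genes and are not drawn. CCAAT matches in the further windows of PCNA and POLD4 are not drawn either.

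DNA polymerase alpha and its primase begin every Okazaki fragment. PRIM1, the catalytic primase subunit, was at 1106, 1141 and 1155 on the vehicle arrays and at 152, 179 and 180 on the PD0332991 arrays. All treated arrays lay far below all vehicle arrays, a log2 fold change of −2.63 (SE 0.08, adjusted p = 2.4e-05) or 6.18-fold. PRIM2, its partner subunit that helps hand the primer on, was at 680, 694 and 665 with vehicle and at 245, 297 and 324 with PD0332991, and its log2 fold change was −1.20 (SE 0.10). POLA1, the DNA-synthesising subunit, fell from 1229 ± 64.3 to 452 ± 12.9 (SD, n = 3 each), with a log2 fold change of −1.41. POLA2, the B subunit that tethers polymerase and primase, fell from 322 ± 8.68 to 137 ± 17.3 (SD, n = 3 each), a change of −1.15.

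DNA polymerase epsilon synthesises the leading strand. Its catalytic gene POLE was at 830, 897 and 837 with vehicle and at 267, 264 and 309 under PD0332991, a log2 fold change of −1.56 (SE 0.08, adjusted p = 7.4e-05). POLE2, the B subunit, was at 1577, 1564 and 1428 and then at 302, 336 and 354, a larger change of −2.15 on the log2 scale. In both genes the groups were wide apart. POLE3 and POLE4 encode the histone-fold pair of this enzyme, and POLE3 also takes part in chromatin remodelling complexes. POLE3 was at 1491, 1470 and 1608 with vehicle and at 1099, 1251 and 1207 under PD0332991, a log2 fold change of −0.36 (SE 0.07, adjusted p = 0.0136). POLE4 was at 653, 638 and 658 with vehicle and at 610, 720 and 662 with PD0332991. Its groups overlapped, with a log2 fold change of 0.03 (SE 0.07, adjusted p = 0.833).

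DNA polymerase delta synthesises the lagging strand and also serves in repair. POLD1, its catalytic gene, was at 573, 558 and 537 with vehicle and at 185, 222 and 224 under PD0332991, a log2 fold change of −1.34 (SE 0.09, adjusted p = 1.7e-04). POLD3, a subunit that binds PCNA, fell from 1274 ± 13.4 to 376 ± 22.7 (SD, n = 3 each), a change of −1.72. POLD2, the B subunit, was at 858, 850 and 829 with vehicle and at 395, 495 and 503 with PD0332991, a change of −0.85. POLD4, the smallest subunit, was at 150, 145 and 173 with vehicle and at 229, 292 and 235 with PD0332991. It was the only member that rose, with all treated arrays above all vehicle arrays and a log2 fold change of 0.63 (SE 0.11, adjusted p = 0.0080). POLD4 has a single probe set under the selection rule, and it was called higher under each alternative setting run, at 0.52 to 0.70.

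**Figure D4:**
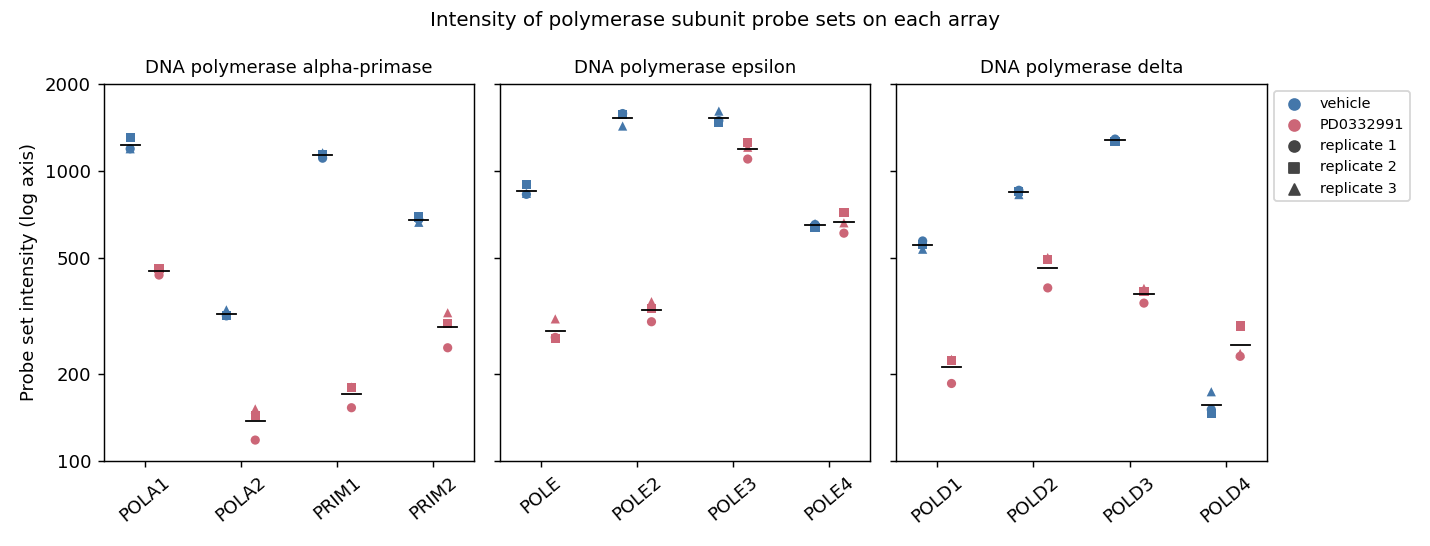
Probe set intensity (log axis) of the subunits of the 3 replicative polymerases on each of the 6 arrays, with the group mean as a black line. Levels of different genes cannot be compared on this scale, and what can be read is the gap between groups, which closes at POLE4 and turns at POLD4.

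The chosen probe sets of the subunits of a complex did not move by equal amounts. Probe sets of the same gene could differ too, as those of RFC5 at −1.89, −1.77 and −0.49. In a contrast, a difference between RNAs and a difference in probe response cannot be told apart. For each complex, the log2 value of the catalytic or large subunit minus the mean log2 value of the accessory subunits was taken per array, and the change of this difference from vehicle to PD0332991 was compared over arrays in 9 such contrasts. In all 9 the groups did not overlap, and each gave p = 0.1 in a two-sided exact permutation test (0.1 after Benjamini-Hochberg adjustment over the 9), the smallest p that 3 against 3 arrays allow. The catalytic subunit fell further than the mean of the accessory subunits in 6 contrasts. For the polymerases epsilon and delta it did not fall further than each of them with the chosen probe sets, as given below. The accessory subunits fell further in 3, those in which RFC1, RPA1 and CHTF18 stand as the large subunit. The primase gave the largest shift, with a change of −1.43 in PRIM1 minus PRIM2 (SD 0.05 with vehicle and 0.08 with PD0332991, n = 3 each). POLA1 minus POLA2 changed by −0.27, with treated arrays at −0.12, −0.30 and −0.37 relative to the vehicle mean. This small shift was −0.61 with the mean of POLA2's probe sets, and its groups overlapped (exact permutation p = 0.2) with quantile normalization and with a pseudocount of 1. CDC7, the kinase that fires origins, fell further than its activator DBF4, with a change of −0.38 in the difference.

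POLE minus the mean of its accessory subunits changed by −0.73, and POLD1 minus that of its own by −0.70. Taken one subunit at a time, a step chosen after the averages had been seen, POLE fell less than POLE2, with a change of 0.59 in the difference, but further than POLE3, at −1.20, and than POLE4, at −1.59. POLD1 fell less than POLD3, at 0.38, but further than POLD2, at −0.49, while against POLD4, which rose, the change was −1.98. The difference between POLD1 and POLD3 depended on the probe set: it turned to −0.26 with the mean of the probe sets of POLD3, whose other probe set was at −0.45 and not called, and all 3 delta pairs then ran the same way. These were among 13 such pairs, of which 13 had groups that did not overlap and p = 0.1 in the exact permutation test, before and after Benjamini-Hochberg adjustment over the 13. How often other pairs of genes separate in this way was not computed. Neither this count nor that of the contrasts can therefore be read as particular to subunits of a complex.

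**Figure D5:**
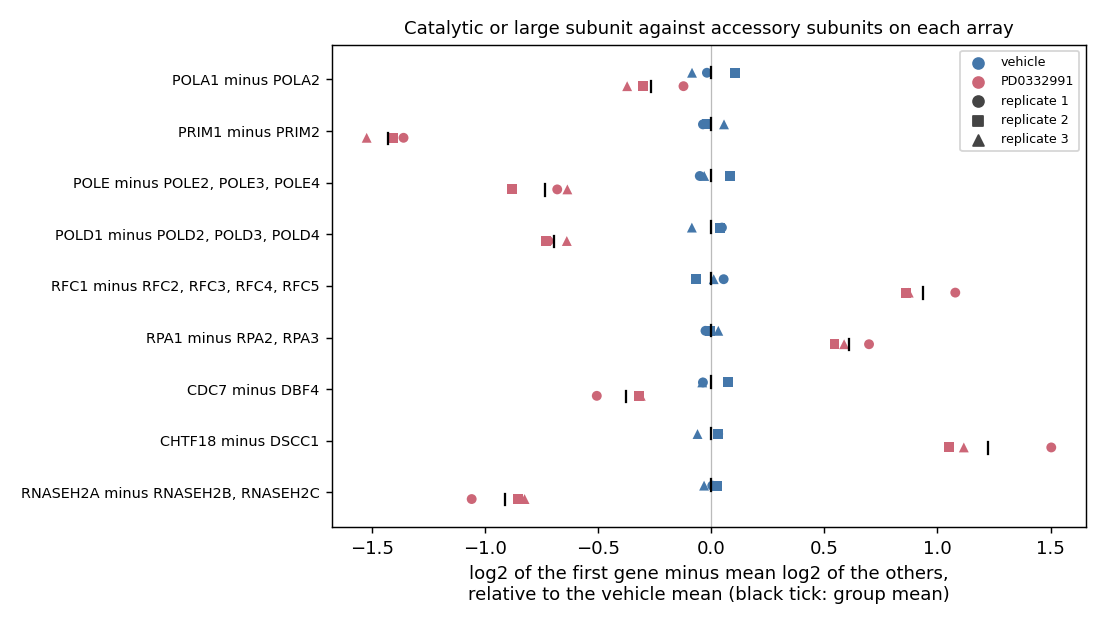
Difference between the catalytic or large subunit and the mean of the accessory subunits on each array (log2, relative to the vehicle mean), with group means as black ticks. PD0332991 arrays lie left of vehicle where the catalytic subunit fell further than that mean, as for PRIM1 at −1.43, and right where it fell less, as for RFC1 at 0.94.

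In the RFC clamp loader, which opens PCNA and closes it around primed DNA, the order was the reverse. RFC1, the large subunit, was at 2683, 2498 and 2716 with vehicle and at 1583, 1553 and 1601 under PD0332991, a log2 fold change of −0.73 (SE 0.06, adjusted p = 3.4e-04). The small ATPase subunits RFC2, RFC3, RFC4 and RFC5 changed by −1.48, −1.61, −1.80 and −1.77. RFC1 thus fell less than their mean by 0.94 (SD 0.06 with vehicle and 0.12 with PD0332991, n = 3 each), and less than each of the 4 by 0.75 to 1.07. Against RFC5 this was 1.04, and 0.55 with the mean of probe sets. RFC2 to RFC5 are shared by several clamp loaders, while RFC1 belongs to the RFC loader alone.

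The alternative loaders swap the large subunit. CHTF18, the large subunit of a loader tied to sister chromatid cohesion, fell from 570 ± 33.3 to 202 ± 3.96 (SD, n = 3 each), a change of −1.43. DSCC1, which encodes an accessory subunit of the same loader, was at 1505, 1440 and 1430 with vehicle and at 181, 243 and 237 with PD0332991. Its log2 fold change of −2.65 (SE 0.12, adjusted p = 4.6e-05), or 6.29-fold, was the largest decrease of the 40, and −0.41 (adjusted p = 0.356) without probe sets of the _s_at and _x_at kinds, which left a dim one. CHTF18 fell less than DSCC1 by 1.22. The shift was 0.10 (exact permutation p = 0.6) when the probe sets of each gene were averaged. The other DSCC1 probe set was at 17.5 with vehicle. ATAD5, which takes PCNA off the DNA, fell from 1163 ± 60.1 to 283 ± 22.6 (SD, n = 3 each), a change of −1.98.

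PCNA itself was at 9219, 9314 and 8465 with vehicle and at 3072, 3603 and 3649 under PD0332991, a log2 fold change of −1.39 (SE 0.09, adjusted p = 1.6e-04). The genes that act on the finished lagging strand fell by similar or larger amounts. FEN1, the flap endonuclease, was at 4147, 4255 and 4120 and then at 1026, 1254 and 1241, a change of −1.82. LIG1, DNA ligase I, fell from 840 ± 31.1 to 216 ± 18.1 (SD, n = 3 each), a change of −1.88. DNA2, a nuclease and helicase for long flaps, fell by 1.83. RNASEH2A, the catalytic subunit of RNase H2, which removes ribonucleotides from DNA, fell from 864 ± 39.0 to 320 ± 44.1 (SD, n = 3 each), a change of −1.40. Its partner genes, which are no members, moved less, with RNASEH2C at −0.78 (adjusted p = 7.4e-04) and RNASEH2B at −0.19 (adjusted p = 0.0511), and RNASEH2A minus their mean changed by −0.91.

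RPA, the trimer that coats single-stranded DNA in replication and repair alike, had the smallest median change among the groups of members, at −0.63. RPA1, the large DNA-binding subunit, was at 3025, 2997 and 3043 with vehicle and at 2208, 2319 and 2224 with PD0332991, a change of −0.42 on the log2 scale (SE 0.05, adjusted p = 0.0018). RPA2, the subunit phosphorylated in the damage response, fell by 0.63, and RPA3, the smallest, from 2211 ± 135 to 807 ± 66.9 (SD, n = 3 each), a change of −1.44. RPA1 fell less than the mean of both small subunits by 0.61. The groups did not overlap for any of the 3 genes.

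GINS, the ring-shaped partner of the helicase, has 4 subunits with no catalytic one among them. GINS2 was at 1334, 1324 and 1404 with vehicle and at 208, 261 and 255 under PD0332991, a log2 fold change of −2.42 (SE 0.10, adjusted p = 3.2e-05). GINS1 was at 2975, 2924 and 2940 and then at 510, 704 and 677, a log2 fold change of −2.21 (SE 0.13). GINS4 fell by 1.58 and GINS3 by 1.35, so the 4 subunits fell by 2.55-fold to 5.35-fold. The log2 fold change of GINS2 was −0.20 (adjusted p = 0.150) without probe sets ending in _s_at or _x_at, which left a pair of dim probe sets. The brighter of these over all arrays, at 51.5 with vehicle, gave that value, and the other, at 60.6 with vehicle, was called lower at −0.87 (adjusted p = 0.0041 over all probe sets).

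Origin firing needs CDC7 with DBF4, and the scaffolds TOPBP1 and RECQL4, which help to bring in CDC45 and GINS. CDC7 was at 3860, 3966 and 3630 with vehicle and at 1396, 1498 and 1584 with PD0332991, a change of −1.35 (SE 0.07). DBF4 fell from 3629 ± 118 to 1847 ± 59.8 (SD, n = 3 each), a change of −0.97. TOPBP1, also an activator of the checkpoint kinase ATR, fell by 0.95. RECQL4, a helicase of the RecQ family, was at 334, 339 and 326 with vehicle, while under PD0332991 its mean was 57.9 and its highest array 70.5, a log2 fold change of −2.25 (SE 0.11, adjusted p = 6.6e-05). The treated arrays lay far below the vehicle arrays, and the pseudocount of 16 understates the change at such intensities.

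The genes that hold a fork together fell as well. CLSPN, which encodes Claspin, the mediator between ATR and CHK1, was at 621, 625 and 555 with vehicle and at 116, 108 and 144 under PD0332991, a log2 fold change of −2.16 (SE 0.11, adjusted p = 7.6e-05). WDHD1 (AND-1), which links the helicase to polymerase alpha, fell from 723 ± 81.6 to 205 ± 8.70 (SD, n = 3 each), a change of −1.74. TIMELESS fell by 1.57 and its partner TIPIN by 1.00. Between these partners the shift was −0.56, with treated arrays at −0.61, −0.64 and −0.45 and vehicle arrays between −0.02 and 0.02. This difference rested on 1 of the TIMELESS probe sets, being −0.06 (exact permutation p = 0.7) when both were averaged and turning to 0.45 without the _s_at one.

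Other probe sets of the members mostly moved the same way. There were 29 of them, for 17 members, of which 21 were lower, 0 higher and 8 not called by limma over all 41091 probe sets with a single symbol. Of those 41091, 4983 were lower and 5252 higher. Of the 8, 5 had a vehicle mean below 64. The other 3 were a POLE4 probe set at −0.11, in a gene that did not pass either, a POLD3 probe set at −0.45 (adjusted p = 0.169) and a CLSPN probe set at −0.50 (adjusted p = 0.0972). The 3 probe sets of RFC5 gave −1.89, −1.77 and −0.49, all lower. With the mean of all probe sets of a gene, DSCC1 was at −1.53, GINS2 at −1.16, CLSPN at −1.15, POLD3 at −1.08, GINS4 at −0.90 and RPA1 at −0.22, all still called lower. TIMELESS was at −0.55, also still lower, without its _s_at probe set.

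Neighbouring parts of the pathway are given for comparison, as counts without a test between lists. Of 21 genes of helicase loading and activation, 17 were lower, 0 higher (limma, adjusted p under 0.05) and 4 not called, with a median of −1.10, and the largest decrease was in MCM10 at −3.00. Of 16 other DNA polymerases, those of repair, lesion bypass, mitochondria, telomeres and receptor gene assembly, 5 were lower and 4 higher, with a median of −0.05. The other 7 were not called, and 2 of them, POLL and POLN, had a mean below 64 over all arrays. POLQ, the polymerase of microhomology end joining, fell from 857 ± 26.9 to 94.5 ± 6.84 (SD, n = 3 each), a change of −2.98. DNTT, the terminal transferase of lymphocyte precursors, rose from 186 ± 32.9 to 350 ± 9.68 (SD, n = 3 each), by 0.87. Of 20 measured partners and repair counterparts of the members, 8 were lower, 1 higher and 11 not called, with a median of −0.14, and 1 had a mean below 64. EXO1, a repair exonuclease of the FEN1 family, was lower, at −2.98, and LIG4, the ligase of end joining, rose by 0.90.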

How the data were processed

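RNA was measured in 3 vehicle and 3 PD0332991 cultures on 1-colour Affymetrix arrays with biotin label. The deposited values are probe set intensities on a linear scale (0.56 to 16362), already summarised and scaled by the authors by a method not given in the sources used here. Detection calls and scan dates were not used. After such scaling a value is a level compared with the rest of that array. Of 54675 probe sets, 62 were controls and not used, and 41091 had 1 gene symbol in the platform annotation, and symbols were updated by gene ID through RefSeq (54 found no match). The log2 of intensity plus a pseudocount of 16 was analysed, which understates the change of dim genes. The test was limma 3.58.1 (R 4.3.3), two-sided, using lmFit and eBayes, with Benjamini-Hochberg adjustment over 19775 genes, threshold 0.05. Subunit contrasts used two-sided exact permutation tests over arrays. The members and lists were chosen with earlier results of these data known. All 40 members are named, with partner subunits and the largest called changes of each neighbouring list. On simulated data the fit recovered 26 of 50 genes changed by 0.5 (log2), 47 of 50 by 1, 49 of 50 by 2 and 50 of 50 by 3, and called 11 of 19575 unchanged genes. The simulation used normal noise with each gene's spread as estimated by limma. It changed far fewer genes than the 2698 called lower and 3088 called higher in the data. Its shares are therefore not the detection rates of this comparison. Figures used matplotlib 3.10.9. The number of arrays limits the precision.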

Additional observations from a re-analysis of the deposited data

How the results depend on the processing

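Over 17 alternatives, 676 values of single members were obtained, of which 673 kept their direction and side of the threshold. The exceptions were GINS2 (−0.20, adjusted p = 0.150) and DSCC1 (−0.41, adjusted p = 0.356) once the _x_at and _s_at probe sets were dropped, and POLE4, which ran from −0.0316 (adjusted p = 0.787) without PD0332991 replicate 2 to 0.0855 without PD0332991 replicate 1 and never passed. Dropping those probe sets left 36 members measured, 32 of them lower. The count of lower members was 38 in the others and 37 at an adjusted p under 0.01, where POLE3 (adjusted p = 0.0136) did not pass, and 1 was higher throughout. Their median was −1.36 with a pseudocount of 64, −1.37 with the mean of probe sets, and −1.51 to −1.42 with 1 array left out. No subunit contrast changed direction in any alternative that gave it a value; those of POLE, CDC7 and CHTF18 had none without the _x_at and _s_at probe sets. Among the 13 subunit pairs, POLD1 minus POLD3 turned to −0.26 with the mean of probe sets and TIMELESS minus TIPIN to 0.45 without the _x_at and _s_at probe sets. Tested on their own, a setting added after seeing the data, 4983 probe sets were lower and 5252 higher. Over all genes 2081 to 2518 were lower and 2170 to 3171 higher with 1 array left out. The replicate number as a block left the members at 38 lower and 1 higher. Same-numbered arrays deviated together weakly at most (r 0.0033, 0.076 and 0.083 across genes, against −0.079 to 0.022 for arrays of different numbers). No label says that the numbers pair the cultures, and they were not taken to do so. Dim probe sets cannot be told from background.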
